A study of Homo sapiens with 4 samples.

Results

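The invasive human lung adenocarcinoma subline CL1-5 was set against its parental line CL1-0, each carrying a control vector. The comparison used 2 of the 4 arrays of the series, 1 per line, and every probe set that reads 1 named gene. That came to 41091 of the 54675 probe sets on the array, which stand for 19775 genes. The CL1-0 cells carried a control vector and the CL1-5 cells a non-silencing shRNA vector, so the line and the type of vector change together and cannot be told apart. All cells of the series had been selected with puromycin for stable transduction. The other 2 arrays hold CL1-0 cells labelled as carrying an AK4 vector and CL1-5 cells carrying an shRNA against AK4, and serve here as a second reading of the difference between the lines. That pair shares no array with the control pair, but it also holds the changes made to AK4, so it is not a replicate.

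CL1-5 is known as a subline selected from CL1-0 for its ability to invade through a membrane, and the pair is a textbook model of lung cancer invasion. Invading carcinoma cells cut the matrix around them with proteases such as urokinase and the matrix metalloproteinases, grip it through integrins and CD44, and pull themselves along with the actin cytoskeleton. Many also pass through an epithelial to mesenchymal transition, in which transcription factors of the SNAIL, TWIST and ZEB families repress junction proteins such as E-cadherin. How much of each of these programmes distinguishes CL1-5 from CL1-0 is the question that the pair of control arrays addresses.

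Signals below are intensities rescaled so that all arrays have the same trimmed mean, with a floor at 6.93 under which a signal was not ranked. Every ratio is CL1-5 over CL1-0 on the log2 scale, so positive values are higher in CL1-5. Values on all 4 arrays are given with the control array of a line first and its other array second. With 1 array per group there is no replicate error and no p-value, and how precise any value can be is limited by the number of arrays. For scale, 95% of genes differed by less than 0.96 between both CL1-0 arrays and by less than 0.44 between both CL1-5 arrays, AK4 changes included, against 2.44 for the control pair. In a whole culture, fewer cells expressing a gene and less RNA per cell cannot be told apart.

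The lines also differed in measures of RNA and labelling quality. The ratio of the 3′ to the 5′ probe sets of ACTB, which rises when RNA is degraded or copied short, was 6.04 and 6.54 in CL1-0 and 1.34 and 1.61 in CL1-5. The spiked control BioB read 783 and 307 in CL1-0 and 106 and 99.1 in CL1-5, and the share of probe sets above the floor was 56.6% and 57.6% against 63.4% and 62.4%. These measures split by line in both pairs, so line and sample quality cannot be told apart for any gene or list below, and the part of quality in the ratios was not tested. The submitters label both lines as type II alveolar cells. Of the markers of that cell type, SFTPC read 28.2 and 26.3 on the control arrays, SFTPB 38.8 and 22.4, NKX2-1 23.9 and 13.7, and SLC34A2 lay below the floor on both, so the defining surfactant genes were dim in either line. LAMP3, a lamellar body protein, was brighter in CL1-0, at 210.02 and 160.1 in CL1-0 and 5.08 and 4.66 in CL1-5. The members of that list higher by 2-fold in CL1-5 were LPCAT1, an enzyme that makes surfactant lipid, at 101 and 127 in CL1-0 and 349 and 361 in CL1-5, and the protease NAPSA at 9.50 and 8.99 in CL1-0 and 19.6 and 19.2 in CL1-5. Of the 9 other marker lists (alveolar type I, club and goblet, basal, ciliated, neuroendocrine, fibroblast, endothelial, leukocyte, and hepatic and gut cells), the fibroblast genes COL3A1, LUM and PDGFRA lay below the floor on both control arrays. No marker list other than the endothelial one, with 3 of 5, had more than 2 measured members past 2-fold in 1 direction.

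In the control pair, 15970 genes lay above the floor on at least 1 array. Of these, 2736 genes (17.1%) were at least 2-fold higher in CL1-5 and 2273 genes (14.2%) at least 2-fold lower. These shares are the background for every list below. At 4-fold the counts were 710 and 625 genes, and at 16-fold 120 and 97. Higher genes were 54.6% of those past 2-fold, but this split moved with the scaling, to 42.9% after quantile normalization, 41.2% after a loess fit within the pair, 26.8% with a common median and 90.4% in the values as deposited. The median over all genes, 0.13, moved to -0.06, 0.00, -0.30 and 0.83 in the same order, so small shifts of a list have no settled sign, and lists are described beside that median.

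The second pair repeated most of the large differences. There, 1888 genes were higher by 2-fold in both pairs (11.8% of the genes measured in the control pair) and 1720 genes lower in both (10.8%). Of the genes past 4-fold in the control pair, 689 of 710 higher and 613 of 625 lower genes were past 2-fold the same way in the second pair. Across the 15530 genes measured in both pairs, Pearson's r of the ratios was 0.925 and Spearman's rho 0.887, as a description across genes, which are not independent. The medians of 8 of 56 gene lists had the other sign there: those for Notch (-0.14), plasminogen (-0.05), receptor kinases outside the EGF receptor family (-0.06), growth factors (-0.05), citric acid cycle (-0.02) and aldehyde dehydrogenases (-0.33), each above 0 in the control pair, and EGF receptor family (0.37) and lung lineage (0.07), each below. Among genes past 2-fold, 29 higher and 17 lower genes had the opposite sign in the second pair. For the genes with several measured probe sets, all probe sets lay on the same side for 65.6% of the 2751 genes past 2-fold, beside 54.1% over all 7946 genes. Of the genes past 2-fold that are named here, ADAM9, ALDH1L1, ALDH6A1, ATF3, CDKN2A, COL5A1, COL6A1, CSTB, EGFR, ERAP1, ERBB3, ERN1, FGFR2, GINS2, HERPUD1, HRK, HSPA4, IGF1R, LOXL2, NOTCH3, NR4A3, NRG1, OCLN, OLIG2, PATJ, PFKFB2, PRDX2, RB1, RFC3, RPS23, SERPINA1, SOX1, TNFRSF10B and TNFRSF10C had another measured probe set on the other side of 0.

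**Figure D1:**
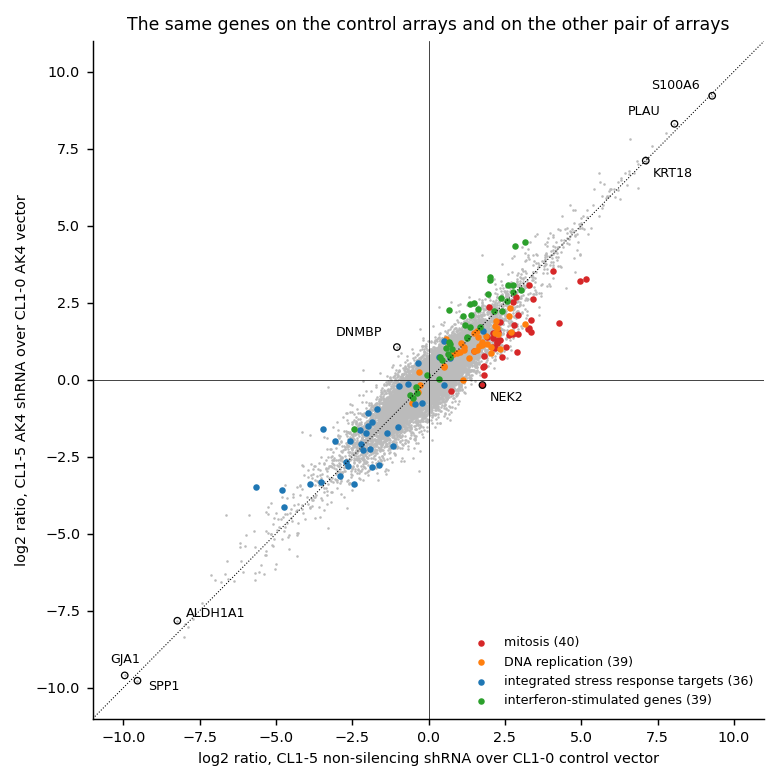
Each point is a gene measured in the control pair, with its log2 ratio of CL1-5 over CL1-0 on the control arrays (x axis) and on the second pair of arrays (y axis). The coloured points are members of 4 gene lists with the number measured, and circled genes are named. Genes with large ratios lie along the dotted line of equal ratios, while the mitosis genes in red, with medians of 2.47 and 1.49 in the 2 pairs, fall mostly below it and the interferon-stimulated genes in green, with medians of 1.27 and 1.78, mostly above it.

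Among genes above the floor on both control arrays, SPP1, PLAU, PRSS23 and KRT18 had the largest differences. SPP1, which encodes the matrix phosphoprotein osteopontin, read 9955 and 9249 in CL1-0 and 13.4 and 10.6 in CL1-5, and was thus 743-fold lower in CL1-5 on the control arrays. PLAU, the protease urokinase, went the other way and read 7.82 and 6.63 in CL1-0 and 2079.8 and 2189 in CL1-5, a ratio of 8.05. KRT18, a keratin of simple epithelia, read 12.1 and 10.8 in CL1-0 and 1681 and 1485 in CL1-5. The only probe set of KRT18, like that of KRT8 below, has a cross-reacting name (_x_at) and may also read related sequences. In SPP1, PLAU and KRT18 both arrays of a line stood far from both arrays of the other. Other large ratios among the higher genes were those of the serine protease PRSS23 (ratio 7.30), the IGF-binding protein IGFBP4 (6.72), the membrane coat protein of caveolae CAV1 (6.61), TMEM158 (6.56) and, with near-identical relatives that its probe sets may also read, the trypsinogen gene PRSS3 (6.27). Among the lower genes, SPP1 was followed by the uridine phosphorylase UPP1 (-6.60), the glucose transporter SLC2A3 (-6.19), BEX2 (-6.16), the myosin light chain MYL9 (-5.89) and the phospholipid transfer protein PLTP (-5.72).

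Other genes past 2-fold lay above the floor on 1 control array only, so that the ratio is a lower bound. They were 586 of the higher and 315 of the lower genes, dim ones included, and the brightest are described here. S100A6, a calcium-binding protein, read 5.73 and 4.32 in CL1-0 and 4336 and 4112 in CL1-5, at least 626-fold higher in CL1-5. PAEP, the secreted lipocalin glycodelin, read 4.49 and 4.84 in CL1-0 and 1516 and 1761 in CL1-5, and ANGPT2, a ligand of the TEK receptor of vessels, read 2.21 and 2.99 in CL1-0 and 595 and 728 in CL1-5. In the opposite direction GJA1, the gap junction protein connexin 43, read 6877 and 5379.9 in CL1-0 and 2.85 and 2.99 in CL1-5, at least 992-fold lower in CL1-5. The nuclear receptor NR2F1 read 1635 and 1829.5 in CL1-0 and 3.03 and 2.62 in CL1-5 and the microtubule protein MAP2 of neurons 1803 and 2248 in CL1-0 and 3.05 and 3.01 in CL1-5. NTS, which encodes the peptide neurotensin, read 1197 and 1065 in CL1-0 and 3.81 and 2.88 in CL1-5, and DIRAS2 and SKIDA1 were likewise at least 127-fold and 111-fold lower.

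**Figure D2:**
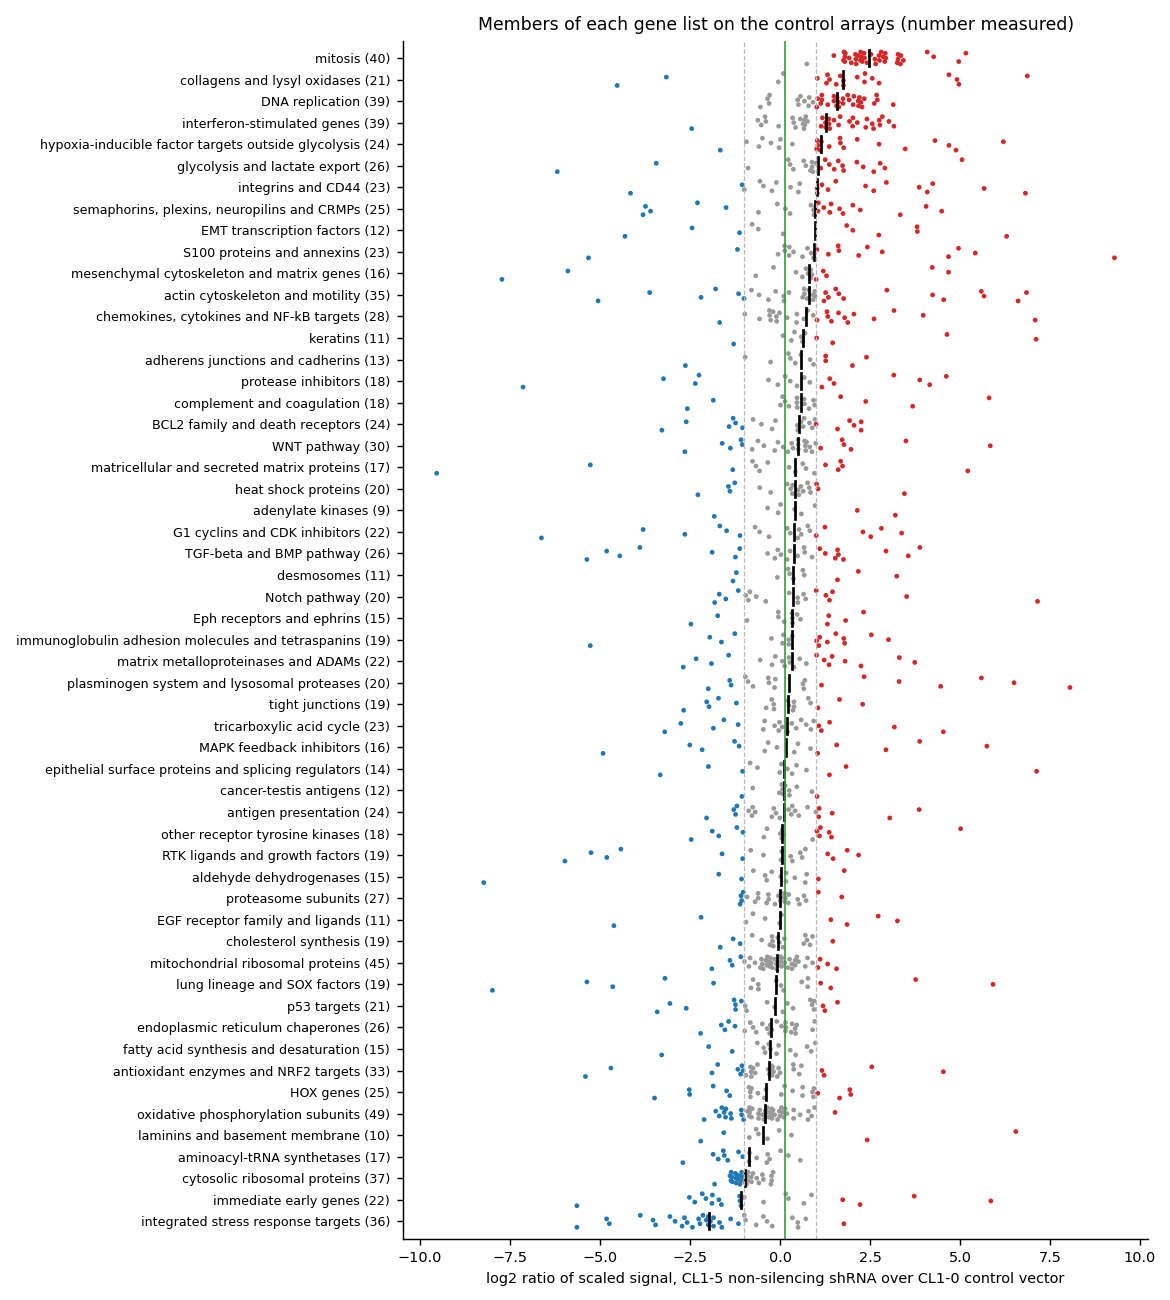
Each point is a measured member of a gene list, placed by its log2 ratio of CL1-5 non-silencing shRNA over CL1-0 control vector (x axis), red where at least 2-fold higher, blue where at least 2-fold lower and grey otherwise. Black bars are list medians, from 2.47 for mitosis at the top to -1.96 for integrated stress response targets at the bottom, and the green line is the median over all genes, 0.13.

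Epithelial genes did not move in 1 direction. Keratins, the intermediate filaments of epithelia, had 4 of 11 measured members higher and 1 lower, with KRT8, the partner of KRT18, at 12.002 and 10.2 in CL1-0 and 299 and 258 in CL1-5 and KRT10 lower at -1.29. CDH1, the adherens junction protein E-cadherin, read 3.94 and 5.51 on the control arrays and EPCAM, an epithelial adhesion protein, 3.97 and 3.92, all below the floor. Another probe set of CDH1 read 4.12 and 7.33, just above the floor in CL1-5. On the second pair of arrays the first CDH1 probe set read 9.81 in CL1-0, above the floor, and 5.81 in CL1-5. The other CDH1 probe set read 4.19 and 5.43 there, below the floor. The neural cadherin CDH2 read 3.03 and 3.53 in CL1-0 and 36.6 and 33.4 in CL1-5, at least 5.28-fold higher in CL1-5, although dim. CTNNB1, the beta-catenin that binds cadherin tails, was lower at 1522 and 874 in CL1-0 and 246 and 267 in CL1-5, and the filament linker VCL higher at 231 and 181 in CL1-0 and 930.1 and 1095 in CL1-5. Adherens junction genes had 4 of 13 members higher and 1 lower.

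Desmosomal genes, which rivet keratin filaments between cells, had 3 of 11 higher and 2 lower, with the cadherin DSG2 at 11.3 and 6.34 in CL1-0 and 107 and 131 in CL1-5 and the linker DSP at a ratio of 1.60. Of the tight junction genes, which seal epithelial sheets, 3 of 19 were higher and 5 lower. Their median of 0.22 turned negative with quantile, common-median and loess scaling. CXADR, an adhesion protein of these junctions, read 184 and 119.9 in CL1-0 and 28.8 and 27.5 in CL1-5, the claudin CLDN12 364 and 369 in CL1-0 and 92.8 and 106 in CL1-5, and OCLN, the occludin itself, had a ratio of -1.21. Among epithelial surface proteins, CDCP1, a transmembrane substrate of SRC kinases, was at least 139.8-fold higher at 5.24 and 6.78 in CL1-0 and 969 and 907 in CL1-5, while the adaptor subunit AP1M2 was lower at 415 and 167 in CL1-0 and 41.4 and 45.04 in CL1-5 and the protease inhibitor SPINT2 at 34.8 and 60.2 in CL1-0 and 8.76 and 7.10 in CL1-5. That list had 3 of 14 members in each direction, and its median of 0.12 also changed sign with quantile, common-median and loess scaling.

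Transcription factors of the epithelial to mesenchymal transition lay on both sides. SNAI2, which encodes the repressor SLUG, read 3.49 and 3.29 in CL1-0 and 544 and 648 in CL1-5, at least 78.5-fold higher in CL1-5. The forkhead factor FOXQ1 read 9.15 and 6.96 in CL1-0 and 128 and 149 in CL1-5 and TCF4, an E-box factor, 5.93 and 4.85 in CL1-0 and 97.5 and 114 in CL1-5. TWIST1, another E-box factor, went the opposite way at 317 and 491 in CL1-0 and 15.998 and 14.9 in CL1-5, as did ZEB2 at 37.7 and 40.2 in CL1-0 and 3.24 and 3.10 in CL1-5. TWIST2, the relative of TWIST1, was higher at 8.35 and 17.9 in CL1-0 and 55.9999 and 65.5 in CL1-5. In all, 6 of 12 were higher and 3 lower, with a median of 0.97.

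The mesenchymal filament protein vimentin was bright in both lines. VIM read 4957 and 5297 in CL1-0 and 6742 and 6831 in CL1-5, a ratio of 0.44, inside 2-fold. SPARC, a secreted matrix glycoprotein, read 5.88 and 4.49 in CL1-0 and 129.9 and 136 in CL1-5 and the calcium-binding protein S100A4 13.6 and 12.6 in CL1-0 and 348 and 348 in CL1-5, both higher in CL1-5. POSTN, the matrix protein periostin, read 1465 and 1499 in CL1-0 and 3.21 and 3.37 in CL1-5, and MYL9, a regulatory light chain of contractile myosin, 532 and 169.7 in CL1-0 and 8.96 and 8.05 in CL1-5, both lower. Of this list 5 of 16 members were higher and 2 lower in the control pair, and 2 and 2 in both pairs.

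**Figure D3:**
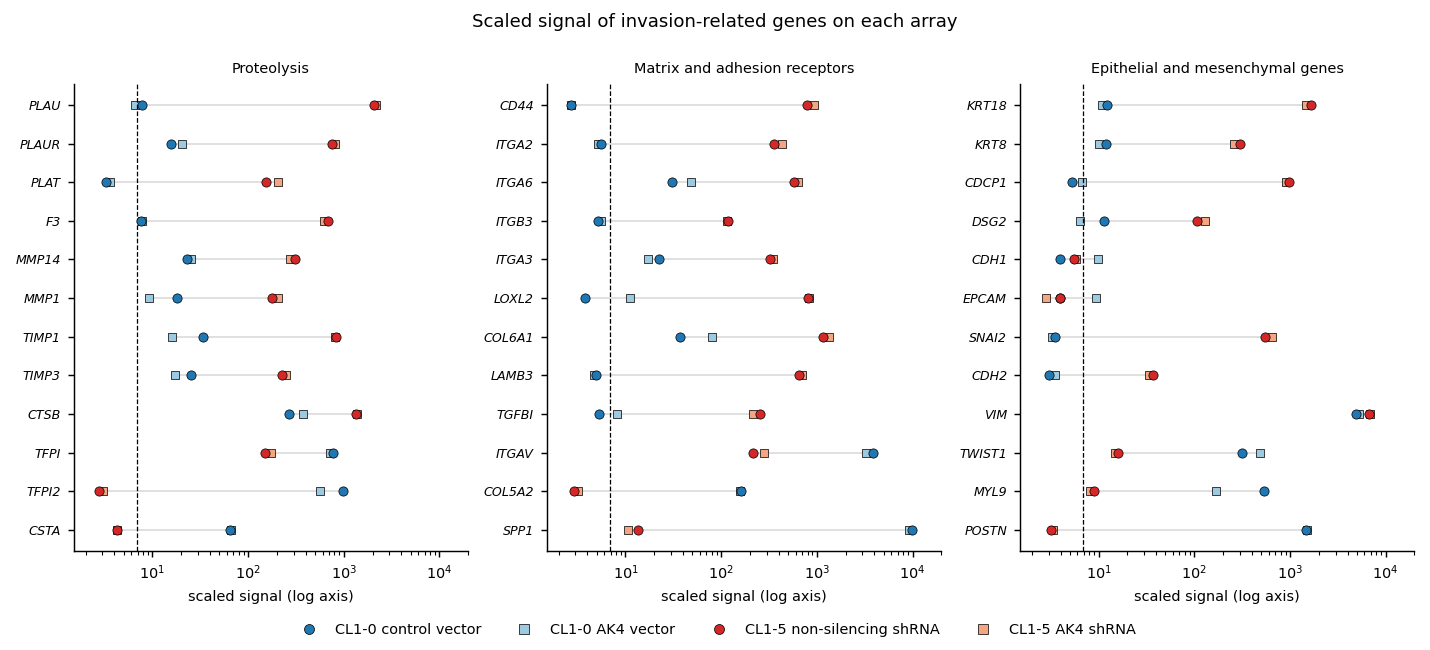
Scaled signals on a log axis for 36 genes on each of the 4 arrays: circles are the control arrays and squares the others, blue for CL1-0 and red for CL1-5, and the dashed line is the floor at 6.93. For most genes the colours fall into separate groups; vimentin (VIM) is bright on all arrays, and CDH1 and EPCAM lie at or below the floor on the control arrays.

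The activators of plasminogen and their receptor were higher in CL1-5. PLAU, described above, its receptor PLAUR and the tissue activator PLAT form the pericellular system that turns plasminogen into plasmin. PLAUR read 15.5 and 20.5 in CL1-0 and 746 and 806 in CL1-5 and PLAT 3.29 and 3.58 in CL1-0 and 153 and 205 in CL1-5. F3, the tissue factor that starts coagulation, read 7.63 and 7.76 in CL1-0 and 691 and 621 in CL1-5, and the thrombin receptor F2R 32.1 and 56.97 in CL1-0 and 318 and 402 in CL1-5. The inhibitor TFPI, which blocks tissue factor, moved opposite to F3, at 771 and 726 in CL1-0 and 151 and 172 in CL1-5, and its relative TFPI2 was at least 141-fold lower at 976 and 559.6 in CL1-0 and 2.76 and 3.07 in CL1-5. The lysosomal cysteine protease CTSB was higher at 265 and 373 in CL1-0 and 1338 and 1383 in CL1-5, and CTSH lower at 61.5 and 70.4 in CL1-0 and 15.4 and 9.01 in CL1-5. In the list of plasminogen and lysosomal protease genes 7 of 20 were higher and 3 lower, the same numbers as in both pairs, while its median of 0.25 turned negative with a common median. The 3 lower members were CTSH, CTSK and KLK8, and TFPI and TFPI2 are not in this list.

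Matrix metalloproteinases, which cut collagens and other matrix proteins, were mostly dim. MMP14, the membrane-anchored collagenase, read 23.2 and 25.1 in CL1-0 and 311 and 276 in CL1-5 and the interstitial collagenase MMP1 17.9 and 9.30 in CL1-0 and 178 and 208 in CL1-5, both higher in CL1-5. MMP2, the gelatinase that MMP14 activates, was dim at 8.17 and 13.4 in CL1-0 and 19.1 and 18.9 in CL1-5, with ratios of 1.23 in the control pair and 0.49 in the second. MMP10 was lower at 37.7 and 27.9 in CL1-0 and 7.50 and 5.71 in CL1-5, and the surface protease ADAM9 at 1937 and 1515 in CL1-0 and 517 and 568 in CL1-5. A dimmer ADAM9 probe set went the other way, at 61.5 and 39.7 in CL1-0 and 232 and 191 in CL1-5. As a mean over its probe sets the ratio of ADAM9 was -0.01. The list had 8 of 22 members higher and 4 lower, and its median of 0.33 turned negative with quantile and common-median scaling. The inhibitors of these enzymes were not lower as a group: TIMP1 read 34.1 and 15.98 in CL1-0 and 838 and 810.1 in CL1-5 and TIMP3 25.4 and 17.04 in CL1-0 and 227 and 248 in CL1-5, both higher in CL1-5. Of 18 protease inhibitors 7 were higher and 4 lower. The lower ones included TFPI2, described above, at -7.14 or lower. They also included CSTA and CSTB, inhibitors of cysteine proteases, at -3.24 or lower and -2.25.

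Collagens and the enzymes that hydroxylate and crosslink them stood furthest from the background of any adhesion or matrix list, with 17 of 21 members higher (81%, beside 17.1% of all genes) and 2 lower, and a median of 1.76. In both pairs the numbers were 16 and 2. LOXL2, a lysyl oxidase that crosslinks collagen, read 3.75 and 11.1 in CL1-0 and 809 and 829.9 in CL1-5 and LOX itself 3.37 and 3.86 in CL1-0 and 179 and 204 in CL1-5. COL6A1, a chain of the microfibrillar collagen VI, read 37.3 and 79.6 in CL1-0 and 1169.9 and 1349.6 in CL1-5, and COL13A1, a membrane-bound collagen, 4.62 and 3.77 in CL1-0 and 209 and 231 in CL1-5. The members lower by 2-fold were COL5A2, a chain of the fibrillar collagen V, at 159 and 157 in CL1-0 and 2.93 and 3.23 in CL1-5, and COL4A5, a basement membrane chain, at 61.8 and 101 in CL1-0 and 5.19 and 8.04 in CL1-5. Another chain of collagen V, COL5A1, had a ratio of 1.37, so the chains of collagen V differed in opposite directions.

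Among laminins, the glycoproteins of basement membranes, LAMB3, a chain of laminin-332, read 4.95 and 4.69 in CL1-0 and 648 and 701 in CL1-5 while LAMB2 read 309 and 272 in CL1-0 and 67.1 and 82.4 in CL1-5. The list had 2 of 10 measured members in each direction, and its median of -0.48 turned positive in the values as deposited. Of the matricellular proteins, which signal from the matrix to cells, 5 of 17 were higher and 3 lower, with a median of 0.42 that turned negative with a common median. TGFBI, a matrix protein that binds integrins, read 5.26 and 8.12 in CL1-0 and 257 and 217 in CL1-5. CCN2, the connective tissue growth factor, was lower at 5733 and 4109 in CL1-0 and 149 and 132 in CL1-5, beside the osteopontin gene SPP1 described above.

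Of the integrins, their linkers and CD44, 13 of 23 were higher and 2 lower (12 and 1 in both pairs), and the median of 1.04 kept its sign under every scaling tried. CD44, the receptor for hyaluronan, read 2.67 and 2.71 in CL1-0 and 781 and 942 in CL1-5, at least 113-fold higher, with 9 of 9 measured probe sets on the same side. The collagen receptor subunit ITGA2 read 5.52 and 5.21 in CL1-0 and 353 and 436 in CL1-5, and the laminin receptor subunits ITGA6 and ITGA3 read 30.6 and 48.4 in CL1-0 and 579 and 629 in CL1-5, and 22.4 and 17.4 in CL1-0 and 327 and 350.98 in CL1-5. ITGB3, whose usual partner is the alpha v subunit, read 5.16 and 5.54 in CL1-0 and 118 and 116 in CL1-5. ITGAV, that partner, was lower at 3867 and 3269 in CL1-0 and 217 and 278 in CL1-5, so the members of the osteopontin and vitronectin receptor differed in opposite directions. The common beta subunit ITGB1 was the other member lower by 2-fold, at 4347 and 3436 in CL1-0 and 2094 and 2199 in CL1-5, with ratios of -1.05 in the control pair and -0.64 in the second.

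Other adhesion molecules were also divided. TM4SF1, a tetraspanin-like surface protein, read 548 and 429 in CL1-0 and 4421 and 4592 in CL1-5 and CD82, a tetraspanin known as a suppressor of metastasis, 16.3 and 17.003 in CL1-0 and 94.6 and 95.8 in CL1-5, both higher in CL1-5. ALCAM, an immunoglobulin adhesion molecule, was lower at 267 and 146 in CL1-0 and 6.44 and 8.40 in CL1-5, as was TSPAN13 at 224 and 533 in CL1-0 and 57.9 and 69.7 in CL1-5. In all 9 of 19 were higher and 4 lower in the control pair, against 6 and 2 in both pairs. Of 23 S100 proteins and annexins, which bind calcium and membranes, 11 were higher and 2 lower, with a median of 0.93. S100A2 read 16.3 and 9.29 in CL1-0 and 699 and 679.6 in CL1-5 and S100A16 28.6 and 26.8 in CL1-0 and 889 and 812 in CL1-5, whereas ANXA1, an annexin that restrains inflammation, read 2875 and 3607 in CL1-0 and 71.9 and 69.4 in CL1-5.

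In the list of actin cytoskeleton and motility genes, 13 of 35 were higher and 6 lower, a median of 0.80. The higher ones include CAV1 and CAV2, which are proteins of caveolae, so the count is not of actin genes alone. The caveolar proteins CAV1 and CAV2 were higher together, at 23.8 and 10.9 in CL1-0 and 2330.3 and 2420.3 in CL1-5, and 34.9 and 17.8 in CL1-0 and 1682 and 1854 in CL1-5. RAC2, a small GTPase usually of blood cells, read 5.01 and 6.18 in CL1-0 and 797 and 882 in CL1-5, and MYO10, the motor of filopodia, 5.72 and 5.42 in CL1-0 and 352 and 331 in CL1-5. RND3, a GTPase that antagonizes RHOA, was lower at 1241 and 772 in CL1-0 and 37.4 and 34.2 in CL1-5, and ENAH, which extends filaments at the leading edge, at 1876 and 1597 in CL1-0 and 153 and 159 in CL1-5.

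Growth factor receptors differed in both directions. EGFR read 37.8 and 25.7 in CL1-0 and 362 and 408 in CL1-5 and its ligand gene HBEGF 58.4 and 35.1 in CL1-0 and 387 and 394 in CL1-5, both higher in CL1-5, while the family member ERBB4 read 169.7 and 241 in CL1-0 and 2.94 and 3.10 in CL1-5, at least 24.5-fold lower. AXL, a receptor kinase for GAS6, read 14.4 and 14.9 in CL1-0 and 465 and 452 in CL1-5, and MET, the receptor for hepatocyte growth factor, 49.5 and 22.6 in CL1-0 and 128 and 126 in CL1-5. The insulin receptor INSR was lower at 171 and 129 in CL1-0 and 30.8 and 34.8 in CL1-5 and its relative IGF1R had a ratio of -1.20. Of the EGF receptor family and its ligands 4 of 11 were higher and 2 lower, and of the other receptor kinases 6 and 5 of 18. The medians, -0.01 and 0.06, had no settled sign: the first turned positive in the values as deposited, and the second negative with quantile, common-median and loess scaling.

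Several growth factors were lower in CL1-5. KITLG, the ligand of the KIT receptor, read 436 and 227 in CL1-0 and 2.98 and 3.23 in CL1-5, at least 62.9-fold lower. VEGFC, which drives lymphatic vessel growth, read 305 and 144 in CL1-0 and 8.01 and 6.77 in CL1-5, the fibroblast growth factor FGF2 469 and 223 in CL1-0 and 16.7 and 15.8 in CL1-5 and PDGFC 367 and 309 in CL1-0 and 17.1 and 18.5 in CL1-5. Of the higher members of the list, ANGPTL4 read 15.3 and 13.4 in CL1-0 and 69.6 and 72.4 in CL1-5 and FGF1 6.39 and 8.001 in CL1-0 and 25.3 and 19.2 in CL1-5. The list had 4 of 19 members higher and 6 lower, and its median of 0.05 turned negative with quantile, common-median and loess scaling.

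Axon guidance genes, many of which also steer tumour cells, had 12 of 25 members higher and 5 lower, with 9 and 5 in both pairs, and a median of 0.98. DPYSL3, a collapsin response mediator protein, read 14.8 and 44.5 in CL1-0 and 332 and 347 in CL1-5, and the semaphorin receptor NRP1 3.33 and 3.003 in CL1-0 and 115 and 128 in CL1-5. CRMP1, the founding member of that mediator family and known from the literature as an invasion suppressor of the CL1 lines, was lower at 168 and 215 in CL1-0 and 34.3 and 33.9 in CL1-5. The secreted class 3 semaphorins SEMA3A, SEMA3C and SEMA3E were at least 13.98-fold, 12.1-fold and 13.3-fold lower, whereas SEMA3F read 19.5 and 31.8 in CL1-0 and 65.6 and 65.1 in CL1-5. Of the Eph receptors and ephrins, contact-dependent guidance cues, 4 of 15 were higher, led by EFNA1 at 2.32, and 2 lower, led by EPHA5 at -2.47 or lower. Their median of 0.34 turned negative with quantile and common-median scaling.

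Among the genes known from earlier work on the CL1 lines, 4 of 6 were measured and all of those were past 2-fold in both pairs. SNAI2 and AXL, given above, were higher in CL1-5, and CRMP1 lower. The fourth, DNAJB4, a heat shock cochaperone known as HLJ1, was also lower at 244 and 193 in CL1-0 and 50.1 and 54.9 in CL1-5. CLDN1, a claudin of tight junctions, lay below the floor on both control arrays, as did the probe set that stands for CDH1. This list was chosen because the lines were known to differ in its genes, so it adds no independent evidence of a direction.

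Developmental signalling genes showed large single differences and no common direction. JAG1, a ligand of Notch receptors, read 6.24 and 7.26 in CL1-0 and 986 and 1054 in CL1-5, at least 142-fold higher, while the transcription factor RBPJ through which Notch acts had a ratio of -1.81 and the receptor NOTCH3 -1.51. FZD6, a WNT receptor, read 3.52 and 3.58 in CL1-0 and 397 and 431 in CL1-5 and SFRP1, a secreted WNT antagonist, 68.7 and 76.4 in CL1-0 and 775 and 748 in CL1-5. TGFBR2, the ligand-binding receptor of TGF-beta, read 32.1 and 13.3 in CL1-0 and 379 and 355 in CL1-5 and SMAD3, which carries its signal, 12.3 and 19.5 in CL1-0 and 182 and 216 in CL1-5. SMAD2, the partner of SMAD3, was lower at 432 and 393 in CL1-0 and 117 and 123 in CL1-5, SKIL, which holds SMAD activity back, at 413 and 384 in CL1-0 and 18.9 and 29.5 in CL1-5, and the helix-loop-helix inhibitor ID2 at 822 and 905 in CL1-0 and 19.95 and 17.4 in CL1-5. Higher and lower members numbered 9 and 7 of 26 for TGF-beta and BMP, 6 and 4 of 20 for Notch and 6 and 5 of 30 for WNT. The medians of the first pair of lists, 0.38 and 0.37, turned negative with a common median, whereas that of WNT, 0.50, did not change sign.

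Feedback inhibitors of MAP kinase signalling were split by gene. The phosphatase DUSP5 read 18.2 and 11.7 in CL1-0 and 975 and 954 in CL1-5 and DUSP4 18.6 and 23.2 in CL1-0 and 274 and 276 in CL1-5, but DUSP6, the cytoplasmic phosphatase of ERK, read 2558 and 2356 in CL1-0 and 84.8 and 85.3 in CL1-5 and the adaptor SPRY2 428 and 540.1 in CL1-0 and 95.7 and 96.3 in CL1-5. Of 16 such genes 5 were higher and 5 lower, and the median of 0.16 turned negative with a common median. Immediate early genes, which respond to growth signals and stress within minutes, were lower as a list, with 12 of 22 lower and 4 higher and a median of -1.10. In the second pair the median was -0.39 and 5 remained lower in both. NR4A3 and EGR3 had ratios of -2.16 and -2.52 or lower in the control pair and -0.05 and -0.81 in the second, and the CL1-0 signals of NR4A3 were 61.9 and 10.7. IER3 and IER5 went against the list at 37.8 and 43.9 in CL1-0 and 2191 and 2675 in CL1-5, and 65.3 and 68.7 in CL1-0 and 865 and 994 in CL1-5.

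Lung lineage and SOX factors included large differences in both directions. SOX2, a factor of foregut, neural and squamous progenitors, read 1759.97 and 1697 in CL1-0 and 2.87 and 2.61 in CL1-5. On that probe set it was at least 254-fold lower in CL1-5. Other SOX2 probe sets above the floor on both control arrays had smaller ratios, of -5.30 and -3.77. A dim SOX2 probe set, above the floor on the CL1-0 control array only, was at -0.35. SOX9, a factor of distal lung progenitors, read 5.93 and 6.86 in CL1-0 and 419 and 432 in CL1-5 and FOXA2, an endoderm factor, 4.11 and 3.87 in CL1-0 and 94.4 and 83.2 in CL1-5. GATA3 followed SOX2, at 174 and 99.2 in CL1-0 and 5.30 and 5.41 in CL1-5. The list had 4 of 19 members higher and 5 lower (2 and 5 in both pairs) and a median of -0.11, which turned positive in the values as deposited. Of 25 measured HOX genes, which record position along the body axis, 6 were lower, led by HOXD8 at 77.7 and 76.3 in CL1-0 and 4.97 and 4.38 in CL1-5 and HOXC6 at 816 and 1274 in CL1-0 and 142 and 148 in CL1-5, and 4 higher, of which HOXB7, at 58.96 and 38.3 in CL1-0 and 186 and 193 in CL1-5, was also higher by 2-fold in the second pair. Cancer-testis antigens, germline genes often active in tumours, gave 1 higher and 1 lower of 12, with MAGEA4 bright in both lines at 832 and 852 in CL1-0 and 399 and 437 in CL1-5.

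Mitosis genes were higher in 39 of 40 cases and DNA replication genes in 28 of 39, none was lower by 2-fold, and both lists kept a positive median under every scaling tried. In both pairs of arrays 31 and 20 of them were higher. The size of the difference depended on which array stood for CL1-0. The median signal of the mitosis list was 74.2 and 160.4 on the CL1-0 arrays and 478 and 470.4 on the CL1-5 arrays and the list median was 2.47 in the control pair and 1.49 in the second pair. SPC25, a kinetochore protein, read 18.5 and 97.2 in CL1-0 and 357 and 351.1 in CL1-5. NEK2, a centrosome kinase, read 96.8 and 361 in CL1-0 and 329 and 319 in CL1-5, so its ratio went from 1.76 to -0.18, and NCAPG, a condensin subunit, from 1.80 to 0.14. The cytokinesis gene ANLN held at 3.28 and 3.07. For DNA replication the medians were 1.57 and 1.08, with the polymerase subunit gene POLD1 at 22.2 and 50.2 in CL1-0 and 196 and 175 in CL1-5 and the helicase gene MCM3 at 78.4 and 163 in CL1-0 and 511 and 478 in CL1-5.

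Since members of both lists differed together, their promoters were searched for motifs. The sequences were RefSeq promoters of assembly GRCh38.p14, from 250 bases before to 50 bases after each gene's start, searched on both strands. TTTGAA or TTCGAA, the core of the cell cycle homology region at which late cell cycle genes are repressed, was found in 25 of 34 mitosis promoters (73.5%), beside 16.6% of all 27305 promoters. TTTCCCGC, TTTGGCGC, TTTCGCGC or TTTGCCGC, forms of the E2F site, were found in 18 of 34 DNA replication promoters (52.9%), beside 3.33% of all. A match is a description of letters and not a site of binding. The windows are shown 5′ to 3′ on the strand of the gene, with the motif in capitals, for 7 of the members past 2-fold with a match before the start: the 4 mitosis genes with the largest ratios among these, and 3 replication genes. The replication genes were not taken by ratio alone: TYMS, at 2.28, also has a match before the start and is not shown.

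DLGAP5: ctttcaatcaaTTCAAAtatcgcacgga
MKI67: cttcgttttcgTTTGAAttgggcgggcg
PLK1: ccagcgccgcgTTTGAAttcggggagga
CCNB2: gcgacgcggtaTTTGAAtcctggaacaa
MCM3: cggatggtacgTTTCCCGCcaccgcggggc
GINS2: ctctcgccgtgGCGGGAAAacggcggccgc
RFC3: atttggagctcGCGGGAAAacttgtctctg

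These lie at chr14:55191678-55191705 on the minus strand for DLGAP5, chr10:128126436-128126463 on the minus strand for MKI67, chr16:23678849-23678876 on the plus strand for PLK1 and chr15:59105106-59105133 on the plus strand for CCNB2. For the replication genes they lie at chr6:52284898-52284927 on the minus strand for MCM3, chr16:85688967-85688996 on the minus strand for GINS2 and chr13:33818083-33818112 on the plus strand for RFC3. The first base of the motif lies 29 bases before the start in MKI67, PLK1 and CCNB2, 109 in DLGAP5, 174 in MCM3, 31 in GINS2 and 55 in RFC3. Of the next mitosis genes by ratio, which are not shown, it lies 161 bases before the start in CDK1, 20 in ANLN, 151 in TOP2A and 28 in KIF11. The signals of the replication genes shown were 60.8 and 79.1 in CL1-0 and 274 and 224 in CL1-5 for GINS2 and 103 and 94.1 in CL1-0 and 316 and 248 in CL1-5 for RFC3. In the mitosis genes, MKI67, the proliferation antigen, read 14.996 and 22.9 in CL1-0 and 255 and 263 in CL1-5, CCNB2, a mitotic cyclin, 63.7 and 154 in CL1-0 and 646 and 592 in CL1-5, and DLGAP5, a spindle protein, 21.7 and 77.2 in CL1-0 and 677 and 708 in CL1-5. The mitotic kinase PLK1 read 26.6 and 42.8 in CL1-0 and 286 and 261 in CL1-5. GCGGGAAA is TTTCCCGC on the opposite strand and TTCAAA is TTTGAA. Of the other lists, CAGGTG, the E-box that SNAIL and ZEB factors bind, was in 25 of 54 promoters of the 5 junction and keratin lists (46.3%) beside 20.6% of all. TTGCATCA, a form of the composite site of C/EBP and ATF proteins, was in 2 of 29 promoters of stress response targets (6.9%) beside 0.923%, and TGACTCA or TGAGTCA, the AP-1 site, in 1 of 18 immediate early promoters (5.56%) beside 4.92%.

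Genes that gate entry into the cycle were mixed, with 6 of 22 higher and 6 lower and a median of 0.39 that turned negative with a common median. E2F7 and E2F8, repressors induced late in the cycle, had ratios of 2.52 and 2.30. CDKN2B, which neighbours CDKN2A and encodes the inhibitor p15, read 43.3 and 44.1 in CL1-0 and 2.83 and 2.62 in CL1-5, below the floor in CL1-5. The probe set that stands for the cyclin gene CCND2 also lay below the floor in CL1-5. Another CCND2 probe set read 45.1 and 24.2 in CL1-0 and 15.03 and 13.8 in CL1-5. CDKN1A, the inhibitor p21, was higher at 75.3 and 41.4 in CL1-0 and 179 and 220.3 in CL1-5, and the retinoblastoma gene RB1 had a ratio of -1.48. Targets of p53 had 3 of 21 higher and 7 lower, and their median of -0.15 turned positive in the values as deposited. PLK2, a stress-induced kinase, read 514 and 186 in CL1-0 and 48.2 and 51.4 in CL1-5 and the death receptor TNFRSF10B 1085 and 1109.6 in CL1-0 and 178 and 217 in CL1-5.

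**Figure D4:**
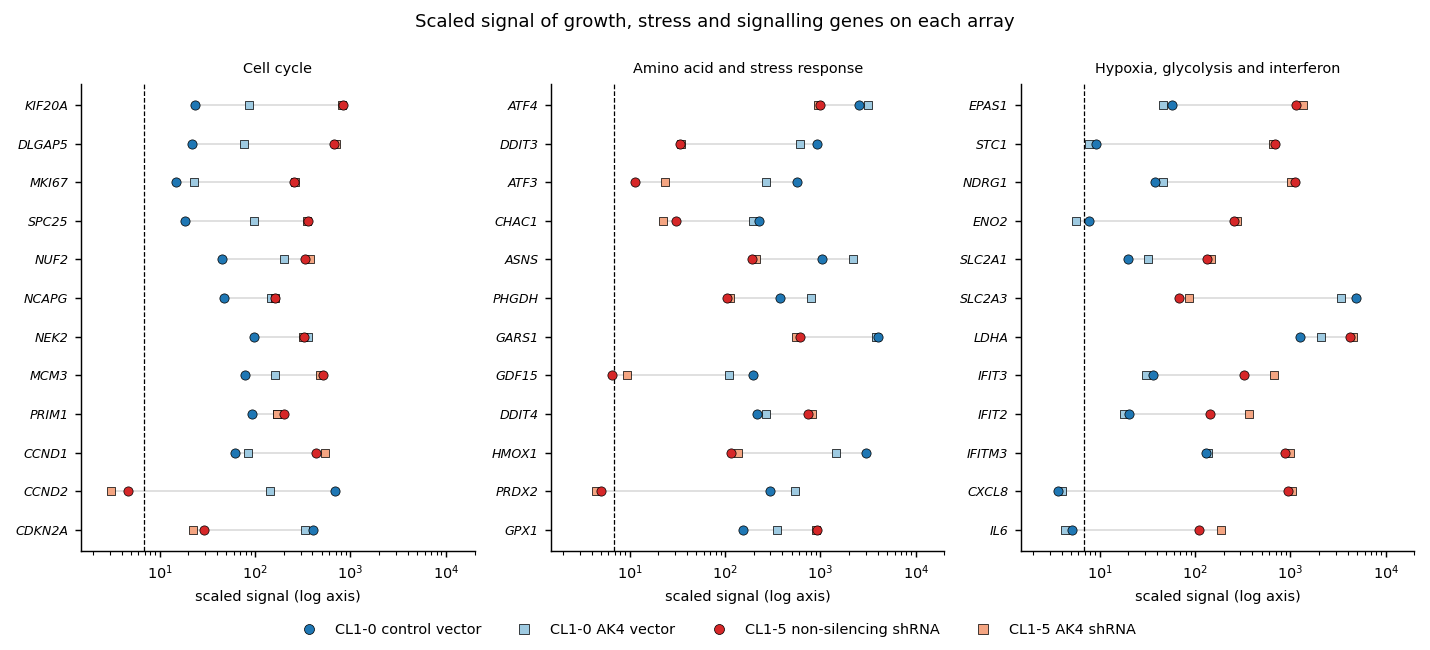
Scaled signals on a log axis for 36 genes of growth, stress and signalling on each of the 4 arrays, marked as circles for control arrays and squares for the others, blue for CL1-0 and red for CL1-5, with the floor at 6.93 dashed. Several cell cycle genes, such as NEK2 and SPC25, differ between both CL1-0 arrays, while genes such as STC1 and CXCL8 stand apart by line on all 4.

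Targets of the integrated stress response, which ATF4 switches on when amino acids run short or proteins misfold, were lower in 25 of 36 cases (69.4%, beside 14.2% of all genes) and higher in 1, and 24 of the lower ones were so in both pairs. ATF4 itself read 2549 and 3147 in CL1-0 and 985 and 942 in CL1-5. Of the amino acid enzymes, the asparagine synthetase ASNS read 1030.3 and 2213 in CL1-0 and 191 and 214 in CL1-5 and PHGDH, which opens serine synthesis, 379.9 and 804 in CL1-0 and 106 and 114 in CL1-5. CHAC1, which degrades glutathione, read 229 and 198 in CL1-0 and 30.3 and 22.5 in CL1-5, and the secreted stress cytokine GDF15 195 and 111 in CL1-0 and 6.49 and 9.36 in CL1-5. The exception was DDIT4, an inhibitor of mTOR that hypoxia also induces, at 218 and 271 in CL1-0 and 745 and 813 in CL1-5. Aminoacyl-tRNA synthetases, which charge tRNAs and in part belong to the same programme, were lower in 8 of 17 and higher in 0, with GARS1 at 4021 and 3829 in CL1-0 and 619 and 559 in CL1-5. Their median of -0.86 reached 0.01 in the values as deposited.

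Chaperones of the endoplasmic reticulum had 5 of 26 lower and none higher, and the median of -0.25 turned positive in the values as deposited. HSPA5, the main chaperone BiP, read 4866 and 3794 in CL1-0 and 1683 and 1727 in CL1-5, and the stress sensor ERN1 107 and 92.5 in CL1-0 and 23.2 and 20.4 in CL1-5. Heat shock proteins gave 3 of 20 higher and 4 lower, a median of 0.42 that turned negative with a common median. HSPA2 was the highest at 14.2 and 21.1 in CL1-0 and 155 and 171 in CL1-5, and DNAJB4, named above, the lowest. Among antioxidant genes 8 of 33 were lower and 4 higher, with a median of -0.29 that turned positive in the values as deposited. The haem oxygenase HMOX1 read 2992 and 1462 in CL1-0 and 115 and 138 in CL1-5 and the peroxiredoxin PRDX2 294 and 547 in CL1-0 and 5.05 and 4.50 in CL1-5, while GPX1, a glutathione peroxidase, read 156 and 353 in CL1-0 and 914 and 901 in CL1-5 and the malic enzyme ME1 4.47 and 5.12 in CL1-0 and 161 and 151 in CL1-5.

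Hypoxia-inducible factor targets and glycolysis genes were higher as lists. Outside glycolysis 16 of 24 targets were higher and 1 lower, and in glycolysis 13 of 26 and 2; the medians of 1.13 and 1.06 kept their sign under every scaling tried. EPAS1, the factor HIF-2 alpha, read 57.8 and 46.8 in CL1-0 and 1142 and 1359.8 in CL1-5, and the alpha subunit gene HIF1A 757 and 685 in CL1-0 and 2578 and 2661 in CL1-5. STC1, a secreted glycoprotein induced by hypoxia, read 9.26 and 7.77 in CL1-0 and 683 and 666 in CL1-5 and NDRG1, a stress-induced differentiation gene, 38.1 and 45.8 in CL1-0 and 1127 and 1016 in CL1-5. ADM, the peptide adrenomedullin and also a classic hypoxia target, was the exception at 426 and 282 in CL1-0 and 135 and 122 in CL1-5.

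Genes of glucose transporters lay on opposite sides. SLC2A1, the ubiquitous transporter GLUT1, read 19.7 and 32.6 in CL1-0 and 135 and 147 in CL1-5, and SLC2A3, the high-affinity transporter GLUT3, 4928 and 3376 in CL1-0 and 67.6 and 85.9 in CL1-5. ENO2, the neuronal enolase, read 7.69 and 5.72 in CL1-0 and 256 and 275 in CL1-5 and the lactate dehydrogenase gene LDHA 1277 and 2105 in CL1-0 and 4257 and 4494 in CL1-5. PFKFB4 was higher at 33.8 and 49.9 in CL1-0 and 255 and 234 in CL1-5, whereas PFKFB2, another enzyme of the same bifunctional family, was lower at 117 and 92.8 in CL1-0 and 10.8 and 14.1 in CL1-5. In both the transporters and the bifunctional enzymes the members lay on opposite sides on the probe sets that stand for them. Of the dimmer PFKFB2 probe sets, however, one was higher, at 1.18 in the control pair and 0.72 in the second. Another was lower at -0.39 in the control pair.

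Respiratory chain subunits were lower in 12 of 49 cases and higher in 1. Their median of -0.40 was -0.07 after quantile normalization and 0.00 after loess, and positive in the values as deposited, so the shift depends on how bright genes were scaled. Cytosolic ribosomal protein genes, among the brightest on the arrays, showed the same dependence. All 37 measured members had ratios below 0 and 16 were past 2-fold, with a median of -0.96, but the median was -0.26 with quantile and -0.28 with loess scaling. ATP5PD, a subunit of the ATP synthase stalk, read 4646 and 4056 in CL1-0 and 1076 and 1148 in CL1-5, and CYC1, the cytochrome of complex III, went the other way at 632 and 854 in CL1-0 and 1823 and 1599.5 in CL1-5. RPL38, a protein of the large ribosomal subunit, read 8895 and 9819 in CL1-0 and 2523 and 2494 in CL1-5.

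Of 23 genes in the citric acid cycle list 5 were higher and 5 lower, and the median of 0.21 turned negative with a common median. The list also holds enzymes beside the cycle, among them PC, PCK2, the malic enzyme ME1 and the cytosolic IDH1. These 4 were past 2-fold, so the counts are not of the cycle alone. The carboxylase PC, which feeds the cycle with oxaloacetate, read 13.5 and 14.8 in CL1-0 and 122 and 120.1 in CL1-5, and IDH1, the cytosolic isocitrate dehydrogenase, 2271 and 2226 in CL1-0 and 336 and 358 in CL1-5. The mitochondrial kinase PCK2, which drains oxaloacetate, was lower at 528 and 464 in CL1-0 and 57.4 and 66.2 in CL1-5. In lipid synthesis 3 of 15 fatty acid genes and 3 of 19 cholesterol genes were lower, and 0 and 1 higher, with medians of -0.27 and -0.06 that turned positive in the values as deposited. The lower fatty acid genes include CPT1A, the gatekeeper of fatty acid oxidation and not an enzyme of synthesis. CPT1A read 509 and 492 in CL1-0 and 52.1 and 67.6 in CL1-5 and the desaturase SCD 2377 and 2212 in CL1-0 and 602 and 762 in CL1-5. The synthase FASN had a ratio of -1.33 in the control pair and -0.33 in the second. ALDH1A1, an aldehyde dehydrogenase used as a marker of stem-like tumour cells, was at least 300.5-fold lower at 2082 and 1572 in CL1-0 and 2.85 and 2.41 in CL1-5. Its family had 2 of 15 members higher and 3 lower.

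Adenylate kinases balance AMP, ADP and ATP in each compartment of the cell. AK4, the mitochondrial member, read 115 and 111 in CL1-0 and 1056 and 442 in CL1-5 and was 9.21-fold higher in CL1-5 on the control arrays. The CL1-0 array labelled AK4 vector was thus not above its control array for this gene, nor on any of the 4 AK4 probe sets. The label could not be checked from these values and the reason was not tested, so the array is named here by its label alone. AK6 was lower at 1049 and 932 in CL1-0 and 296 and 275 in CL1-5, and AK1 and AK3 lay inside 2-fold at -0.05 and 0.02. Of the list 2 of 9 members were higher and 1 lower, and its median of 0.41 turned negative with a common median. The higher member beside AK4 was CMPK2, at 8.30 and 17.7 in CL1-0 and 36.8 and 82.8 in CL1-5. CMPK2 is a kinase of UMP and CMP that the list holds, and not an adenylate kinase.

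Interferon-stimulated genes, the antiviral programme that interferons switch on, were higher in 23 of 39 cases and lower in 1, the same counts as in both pairs, and the median of 1.27 was positive under every scaling tried. The list median was larger in the second pair, 1.78, opposite to the mitosis list. IFIT3, which blocks viral translation, read 36.7 and 30.8 in CL1-0 and 329 and 677 in CL1-5 and IFIT2 20.3 and 17.97 in CL1-0 and 145 and 366 in CL1-5, with the highest signal on the AK4 shRNA array. The membrane protein IFITM2 read 59.2 and 73.6 in CL1-0 and 482 and 557 in CL1-5. IFI35 was the member lower by 2-fold, at 452 and 327 in CL1-0 and 82.6 and 107 in CL1-5. Antigen presentation genes had 5 of 24 higher and 4 lower, a median of 0.12 that turned negative with a common median. CD274, the checkpoint ligand PD-L1, read 4.52 and 5.07 in CL1-0 and 101 and 112 in CL1-5 and the immunoproteasome subunit PSMB8 4.79 and 5.97 in CL1-0 and 57.3 and 82.7 in CL1-5, while HLA-DRB1, a class II chain whose probe sets may read near-identical relatives, was lower at 48.4 and 52.7 in CL1-0 and 11.8 and 10.6 in CL1-5.

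Of the chemokines, cytokines and other NF-kB targets 12 of 28 were higher and 1 lower, and the median of 0.71 kept its sign under every scaling tried. CXCL8, the neutrophil chemokine interleukin 8, read 3.71 and 4.03 in CL1-0 and 942 and 1045 in CL1-5, at least 136-fold higher. The cytokine IL6 read 5.17 and 4.33 in CL1-0 and 109 and 189 in CL1-5 and the chemokine CXCL1 3.70 and 3.76 in CL1-0 and 62.2 and 119 in CL1-5. CXCL16 was the member that was lower, at 41.3 and 32.1 in CL1-0 and 12.9 and 15.4 in CL1-5. In complement and coagulation 4 of 18 were higher and 2 lower. THBD, the thrombomodulin that turns thrombin towards anticoagulation, read 4.38 and 4.45 in CL1-0 and 388 and 412 in CL1-5, and its partner PROCR 13.7 and 24.7 in CL1-0 and 176 and 206 in CL1-5. The complement regulators CD59 and CD55, both membrane anchored, parted at 154 and 88.9 in CL1-0 and 802 and 817 in CL1-5, and 439 and 369 in CL1-0 and 73.6 and 101 in CL1-5.

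Genes of cell death had 6 of 24 members higher and 6 lower. The initiator caspase CASP8 read 42.1 and 76.8 in CL1-0 and 200.4 and 275 in CL1-5 and PMAIP1, the BH3 protein NOXA, 262 and 219 in CL1-0 and 998 and 1135 in CL1-5. HRK, another BH3 protein, was lower at 109.6 and 55.04 in CL1-0 and 11.3 and 9.62 in CL1-5. Of 27 proteasome subunits 2 were higher and 4 lower, and of 45 mitochondrial ribosomal proteins 4 in each direction. Their medians of 0.01 and -0.10 had no settled sign, the first turning negative with a common median and the second positive with quantile, loess and deposited values.

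**Figure D5:**
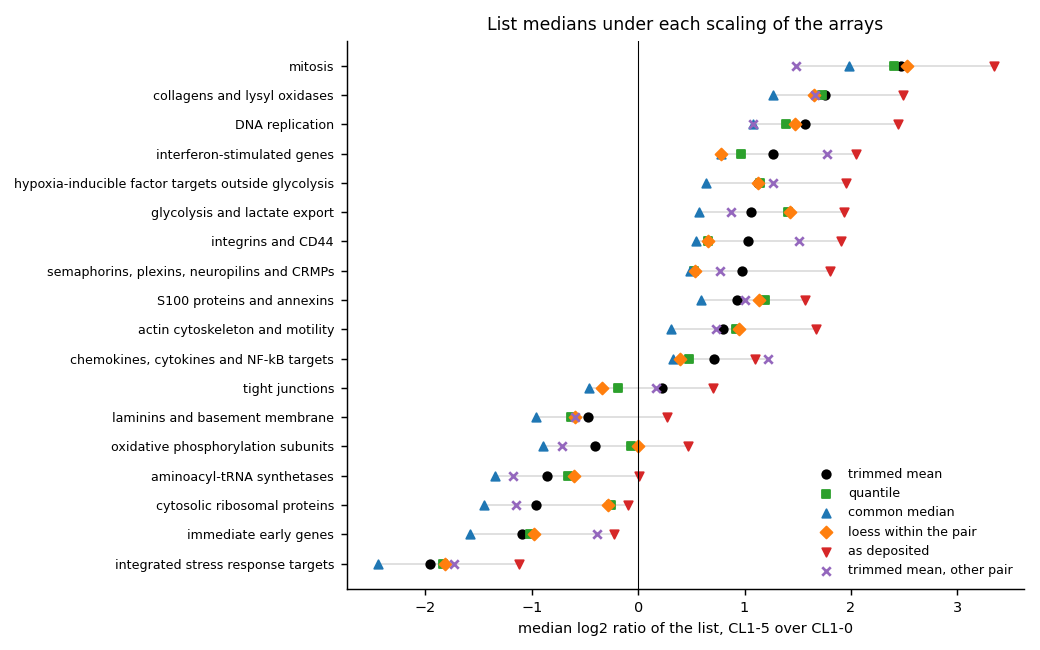
Median log2 ratio of CL1-5 over CL1-0 (x axis) for 18 gene lists on the control arrays, with each list's median under 5 ways of scaling the arrays and, as purple crosses, on the second pair of arrays. The lists at the top, from mitosis to chemokines, stay to the right of 0 under each setting and the integrated stress response to the left, whereas tight junctions, laminins and respiratory chain subunits cross 0.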

How the data were processed

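Each of 4 stably transduced cultures, 1 per group, was read on an Affymetrix HG-U133 Plus 2.0 array, and the authors deposited linear intensities per probe set. MAS5 is named in the submitters' processing notes, while version, scaling target and background step were not given in the sources used here. Control probe sets (62) were left out, and each array was divided by its trimmed mean (2% off each end) and brought to a common value. A floor was set at the 40th percentile, and log2 taken. Of 54675 probe sets, 41097 had 1 gene symbol in the platform annotation, 1801 several and 11777 none; symbols were updated through RefSeq gene identifiers. The probe set with the highest mean log2 level stood for a gene. A gene was measured where 1 array of the pair exceeded the floor, and called at 2-fold. No test was possible.

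Gene lists (66, with 10 of cell type markers; 1369 of 1503 members had a probe set) and members were chosen with earlier results of these data known. Named genes are the 15 highest and lowest on both arrays, the 10 brightest per direction on 1 array, up to 4 and 3 members per list, the CL1 literature genes and AK4, with repetition in the second pair required outside the lists. Chosen after their values were seen were AK1, AK3, ANLN, ASNS, ATF4, CCNB2, CDK1, CHAC1, COL5A1, CSTB, CTSB, EPCAM, F2R, GINS2, HIF1A, IGF1R, ITGA3, KIF11, LDHA, MMP2, NCAPG, NEK2, NKX2-1, OCLN, PHGDH, PLK1, RB1, RFC3, SEMA3F, SFTPB, SFTPC, SMAD2, TOP2A and VIM. Of the promoter table, 1137 of 1503 list genes matched by symbol. Alternatives covered scaling, floor, probe set choice, threshold and the second pair. The procedure was tested on simulated data. Python 3.11.15, pandas 2.3.3, NumPy 2.4.6, statsmodels 0.14.6 (loess span 0.3) and matplotlib 3.10.9 were used.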

Additional observations from a re-analysis of the deposited data

Results flagged for a closer look

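DNMBP, a scaffold protein that activates the GTPase CDC42, was the only gene past 2-fold in both pairs of arrays with opposite signs. It read 377 and 101 in CL1-0 and 183 and 211 in CL1-5, so its ratio of CL1-5 over CL1-0 was -1.04 on the control arrays and 1.06 on the second pair. Its signals in CL1-0 differed more between the arrays of that line than those in CL1-5 did. With 1 array per group the difference was not tested, and the gene is read by 1 measured probe set.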

How the results depend on the processing

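The counts moved with the scaling, the floor, the probe set choice and the threshold. Against 2736 genes higher and 2273 lower by 2-fold, a common median gave 1425 and 3902, and the deposited values without rescaling 7224 and 771. A floor at the 60th percentile gave 1763 higher genes, a mean over all probe sets of a gene 1365 lower genes, and a threshold of 4-fold 710 and 625. The share of genes past 2-fold that repeated in the second pair was 72.0%, and was 73.9% with a common median, 81.3% as deposited, 73.9% after loess and 69.4% where both arrays had to lie above the floor. Under quantile normalization, no floor, probe sets without cross-reacting names and the second pair itself, the counts stayed within 1.5 times the first. A few named genes changed sign. In the second pair ALDH5A1 was at -0.24, GADD45A at 0.081 and DNMBP at 1.06. With _x_at and _s_at probe sets left out, ERAP1 was at 0.21, ERBB3 at -1.39, HERPUD1 at 0.30, HSPA4 at 0.22, NRG1 at 0.59, PATJ at 0.18, SERPINA1 at -0.20 and TNFRSF10C at -0.094. As a mean over probe sets FGFR2 was at -0.19, HSPA4 at 0.48, NRG1 at 0.26 and RPS23 at 0.75. FGFR2 was at -0.83 with the higher floor, ALDH1L1 at 0.041 after quantile normalization and ALDH6A1 at 2.07 as deposited. The cause was not tested beyond the setting itself. Each group is 1 array of 1 culture, so no value has an error, dim genes have ratios bounded by the floor, and line, vector type and sample quality cannot be told apart. No paired analysis was possible because each group holds 1 array and the labels give no replicate numbers.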

Other observations

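Some of the brightest genes of CL1-0 that were far lower in CL1-5, such as MAP2, NR2F1 and SOX2, are known from neural cells. A set of further neural genes was therefore read. These genes were chosen after values of the data were seen, and they were divided. PAX6, a factor of eye and forebrain progenitors, read 232 and 281 in CL1-0 and 11.9 and 8.86 in CL1-5, OLIG2, a factor of oligodendrocyte precursors, 163 and 121 in CL1-0 and 27.9 and 30.7 in CL1-5, and SOX1, a factor of neural progenitors, 43.1 and 66.1 in CL1-0 and 5.19 and 5.28 in CL1-5. The RNA-binding protein ELAVL4 read 22.6 and 29.4 in CL1-0 and 2.70 and 2.25 in CL1-5. The neurofilament gene NEFL was higher in CL1-5 at 70.8 and 37.03 in CL1-0 and 222 and 228 in CL1-5, as was the neuronal tubulin TUBB3 at 1015 and 1051 in CL1-0 and 2264 and 2048 in CL1-5. The progenitor filament NES read 6.97 and 8.73 in CL1-0 and 16.1 and 14.7 in CL1-5, and DCX, STMN2 and SOX11 lay below the floor on every array. These values describe the cultures and name no cell type.

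The array control GAPDH gave the same split by line as ACTB, with a ratio of the 3′ to the 5′ probe sets of 1.25 and 1.54 in CL1-0 and 1.04 and 1.07 in CL1-5.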
